A study of Mus musculus with 92 samples.

Results

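Male CD-1 mice dosed for 18 months with 5 mg/kg of HFPO-DA were compared with males dosed with 0.5 mg/kg for the same time. The comparison used the 8 libraries headed by the identifiers of these animals, 3 at 5 mg/kg and 5 at 0.5 mg/kg, out of 92 libraries in the series. The 5 males given 0 mg/kg for 18 months served as the starting point, so that each gene could be asked whether it had already moved at 0.5 mg/kg, moved further at 5 mg/kg, or moved at 5 mg/kg alone. All animals were wild type (WT) mice of CD-1, an outbred stock, and all were gavaged once a day. Their ages are not given in the labels, and the labels name no litter, cage or batch. Each library came from paraffin sections of 1 fixed liver, measured with TempO-Seq, in which pairs of DNA probes are ligated on chosen transcripts and counted. The protocol in the labels speaks of 4 to 5 animals per group, and 3 libraries were analysed here for 5 mg/kg. Replicate numbers only name animals, in accession order. Where values are means of animals, the p-values rest on the spread between animals within groups, pooled over all groups of the fit.

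HFPO-DA is a perfluoroalkyl ether acid whose shape resembles that of a fatty acid. In rodent liver such acids are known to activate PPAR-alpha, a nuclear receptor that senses fatty acids, pairs with RXR and switches on genes for the uptake, activation and oxidation of fatty acids in peroxisomes, mitochondria and the endoplasmic reticulum. Cyp4a enzymes, acyl-CoA thioesterases and peroxisomal beta-oxidation enzymes are its best known targets in mouse liver. Bulk sections were measured, so fewer cells of a type and less RNA per cell cannot be told apart.

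Library totals were 15215650 to 17463449 counts at 5 mg/kg, 12675992 to 17138912 at 0.5 mg/kg and 9234451 to 17638156 in the controls. Levels are given as CPM, counts scaled to a common library size with the TMM method, and are compared only within a gene. The hepatocyte markers were present in every library, and albumin (Alb) ran from 1050 to 7730 CPM over the 13 animals. One library stood apart at 5 mg/kg: replicate 2 had a summed level of 311000 CPM over 27 acute phase and complement genes, against 24200 and 9910 in the other animals at that dose and 8950 to 32200 at 0.5 mg/kg. Control replicate 5 had 319 CPM of Afp, a fetal liver gene, against 1.4 to 12.1 in the other controls. Replicate 2 at 0.5 mg/kg stood apart in a like way: its fetal and liver tumour markers summed to 801 CPM, against 18.6 to 43.4 CPM in the other animals of that dose, and its hepatocyte markers to 104000 CPM against 23500 to 60400 CPM. At 5 mg/kg the fetal and liver tumour markers summed to 95.4 to 411 CPM. Replicate 1 of the 0.05 mg/kg group, which enters only the estimate of spread, had the lowest sample weight, 0.135, when libraries were weighted by how well they fitted their group. Gene and list values that rest on replicate 2 at 5 mg/kg are mostly also given without it. For the other libraries only numbers of genes or of fits are given.

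In all, 10 genes differed between 5 and 0.5 mg/kg at an adjusted p under 0.05 in edgeR's quasi-likelihood test, 10 of 13002 tested or 0.0769%. Metallothionein Mt2, the small GTPase Rab30, the metalloprotease Mmp7, the lipopolysaccharide-binding protein Lbp, the thioesterase Acot2, the exporter Abcc4, the fatty acid transport protein Slc27a4, the keratin Krt8 and the cytoskeletal adaptor Pdlim1 were higher, 9 genes or 0.0692%. The crystallin-related enzyme Cryl1 was lower, 1 gene or 0.00769%. At an unadjusted p under 0.05, 697 genes were higher and 387 lower. All 10 genes had the same adjusted p, 0.0433, close to the threshold. In 8 of 13 fits that each left out 1 library of the 3 groups, among them the fit without replicate 2 at 0.5 mg/kg, no gene passed, and without replicate 2 of the 5 mg/kg animals 2 of 13559 genes did, or 0.0148%, Acot2 and Cbr1. Both were higher, again 0.0148%, and 0 were lower, or 0%, with 223 lower at an unadjusted p under 0.05. The direction of the 10 differences was the same in every alternative that was run.

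Against the controls the picture was much wider at the higher dose. At 5 mg/kg, 203 genes were higher than at 0 mg/kg (1.56%) and 73 lower (0.561%). At 0.5 mg/kg, 27 genes were higher (0.208%) and 0 lower (0%), although 322 genes were lower there at an unadjusted p under 0.05. DESeq2 called 24 lower and limma 17. All 27 were also higher at 5 mg/kg than at 0 mg/kg. These comparisons share the controls and the dosed animals, so the overlap is no independent repeat.

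Each gene called in any of the 3 comparisons was given a dose class from its calls and from 95% intervals, with a difference of 1 log2 unit, a doubling, as the limit. A gene was graded if it rose from 0 to 0.5 and again from 0.5 to 5 mg/kg, and 1 gene did, Acot2. It was 5-only if it differed between 5 and both lower doses while the interval of 0.5 against 0 stayed within the limit, and 4 genes did: Krt8, Lbp, Pdlim1 and Slc27a4. It was on a plateau if it rose at 0.5 and the interval of 5 against 0.5 stayed within the limit, and 3 genes did: Ddhd2, Fam131c and Pde4d. None turned back in direction. The other 268 genes could not be placed. For 240 of these only 5 against 0 was called, and for 168 of the 240 the interval of 5 against 0.5 excluded 0. The 240 were picked with the same animals at 5 mg/kg, which favours such an interval, so the 168 are a description. Over all 13002 genes tested, 1084 had an unadjusted p under 0.05 between the doses in edgeR's test. For 23 more, both doses were called against 0 but the interval between the doses was too wide. The median half-width of that interval was 0.98 log2 units over all genes tested, so a saturated and a rising gene could often not be told apart with 3 against 5 animals. Without replicate 2 of the 5 mg/kg animals, Acot2 stayed the 1 graded gene, and 0 of the 4 genes of the 5-only class and 0 of the 3 on a plateau kept their class. The 1 gene in each of these classes was then another, Cbr1 and Cep70.

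The 27 genes that had already risen at 0.5 mg/kg, 0.208% of those tested, included 7 of 15 tested genes of omega-oxidation and acyl-CoA hydrolysis. The largest estimates among the 27 were those of Sptlc3, Cidea, Ucp3, Fbp2 and Gabrg1. Over the 27 genes the median log2 fold change was 3.4 for 0.5 against 0, 4.26 for 5 against 0 and 0.79 for 5 against 0.5. The estimate for the last step was above 0 in 24 genes and below 0 in Cyp4a32, Fam43a and Pctp. On the log2 scale, 0.5 mg/kg had reached a median of 81% of the change seen at 5 mg/kg. Since these genes were picked for their change at 0.5 mg/kg, that share is a description that leans high. Among the 203 genes picked for their rise at 5 mg/kg it was 48.8%, with the middle 50% of genes between 28.1% and 69.3%. Picking genes for their rise at 5 mg/kg can make that share lean low, so it too is a description. Both shares set 2 differences from the same controls against each other.

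**Figure D1:**
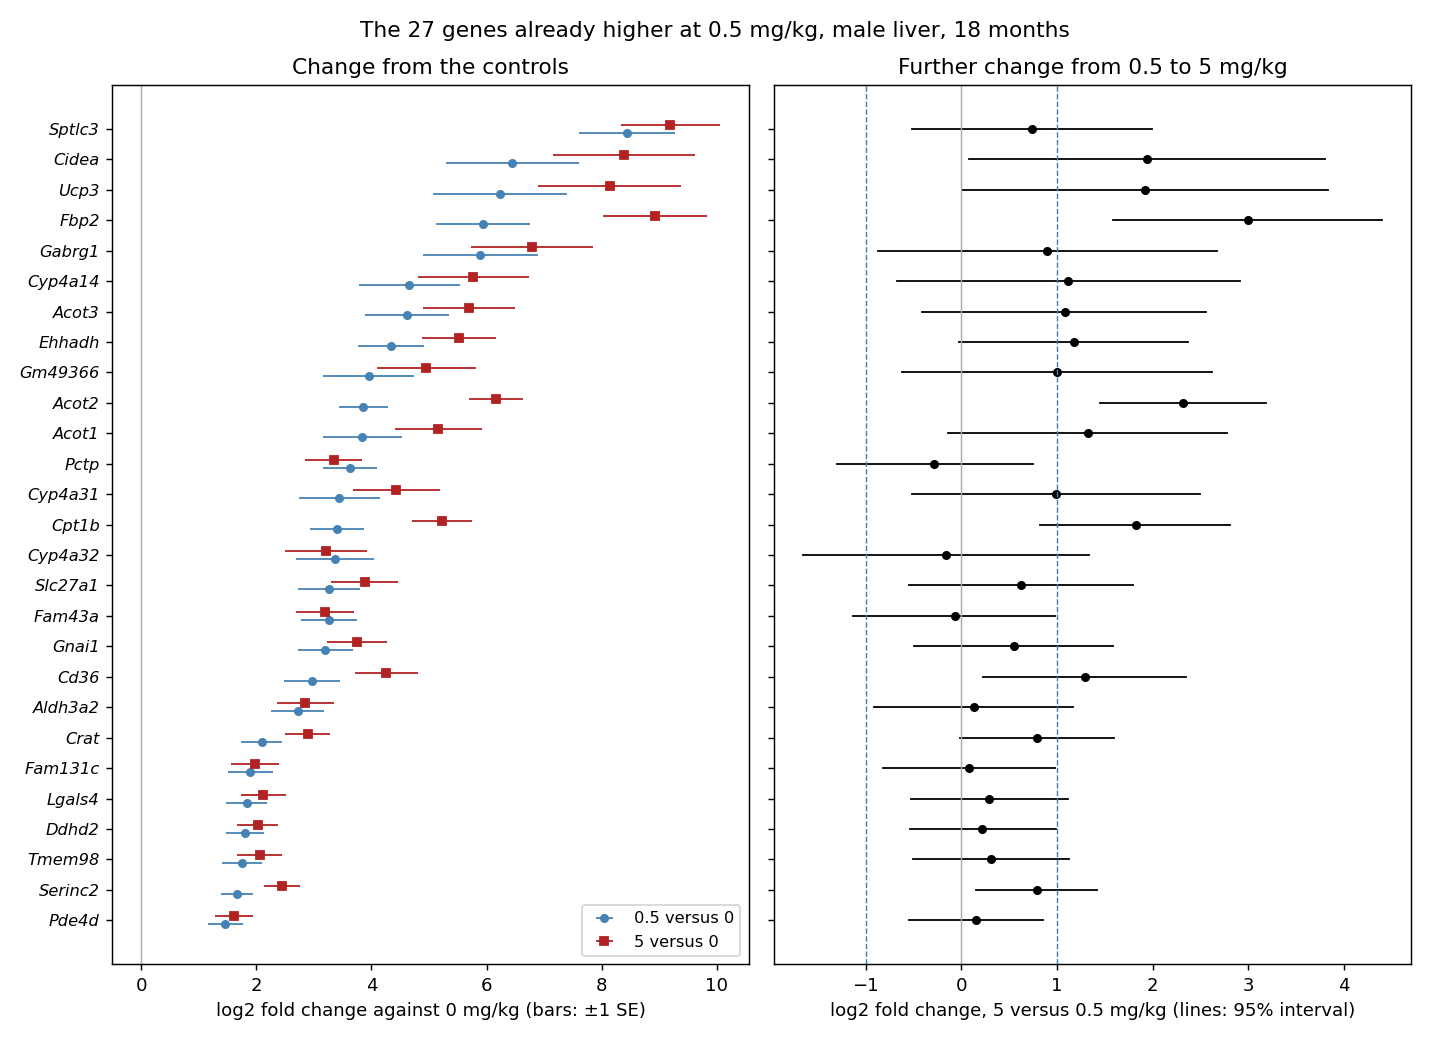
Log2 fold changes of the 27 genes called higher at 0.5 than at 0 mg/kg. On the left, circles are 0.5 against 0 and squares 5 against 0 mg/kg with 1 SE to either side. On the right, points are 5 against 0.5 mg/kg with 95% intervals, and dashed lines mark the limit of 1 log2 unit. In 24 of the 27 genes the square lies to the right of the circle, and the intervals of 3 genes, Ddhd2, Fam131c and Pde4d, lie wholly between the dashed lines.

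The receptor gene itself gave no sign of a dose response. Ppara was at 127, 141, 172, 171 and 144 CPM at 0.5 mg/kg and at 144, 35.6 and 144 CPM at 5 mg/kg, and the controls ran from 116 to 206 CPM. The animals at either dose overlapped the controls except for replicate 2 at 5 mg/kg. The difference between the doses was -0.48 ± 0.48 (SE) log2 units, with a 95% interval from -1.49 to 0.53 (adjusted p = 0.871).

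Omega-oxidation and the hydrolysis of acyl-CoA stood high at both doses. Of 15 genes tested in this list, 7 were higher at 0.5 than at 0 mg/kg, 9 were higher at 5 than at 0 mg/kg and 1 was higher at 5 than at 0.5 mg/kg. Over all genes tested these shares were 0.208%, 1.56% and 0.0692%. The list's median difference between the doses was 0.99 log2 units, against 0.01 over all genes tested. Cyp4a14, which hydroxylates the end of fatty acid chains, was at 44.5, 1.39, 10.3, 21.5 and 2.67 CPM in the controls, at 297, 187, 209, 476 and 845 CPM at 0.5 mg/kg and at 908, 1150 and 565 CPM at 5 mg/kg. All dosed animals were above all controls, and the values at 5 mg/kg overlapped the top of those at 0.5 mg/kg. Cyp4a14 rose by 4.66 ± 0.88 log2 units at 0.5 mg/kg (adjusted p = 0.0303), and the further difference of 1.12 ± 0.85 did not pass (adjusted p = 0.801). Cyp4a10, a close relative, gave the same order of groups, with 580 to 2350 CPM at 0.5 mg/kg and 1320 to 3830 CPM at 5 mg/kg against 9.05 to 173 CPM in the controls. Its probes may also take transcripts of Cyp4a31 and Cyp4a32.

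The thioesterases, which free fatty acids from coenzyme A, held the graded gene. Acot2, the mitochondrial form, was at 3.79, 2.78, 3.99, 2.05 and 2.67 CPM in the controls and at 31, 17.1, 36.3, 83.1 and 53.6 CPM at 0.5 mg/kg. At 5 mg/kg it was at 244, 95.9 and 321 CPM. No group overlapped another. Acot2 rose by 3.86 ± 0.42 log2 units from 0 to 0.5 mg/kg (adjusted p = 0.000121) and by a further 2.32 ± 0.41 from 0.5 to 5 mg/kg (adjusted p = 0.0433). The second step passed in 4 of the 13 fits that left out a library, 1 of them the fit without replicate 2, where it was 2.68 (adjusted p = 0.0283). In CPM, 0.5 mg/kg had reached 19% of the increase at 5 mg/kg.

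Acot1, the cytosolic form, is nearly identical to Acot2 in sequence, so the split between them is uncertain. It was at 557, 97.2, 624, 1030 and 776 CPM at 0.5 mg/kg and at 1770, 664 and 2170 CPM at 5 mg/kg, against 8.88 to 76.1 CPM in the controls. Replicate 2 lay within the range of the lower dose and the other animals lay above it. The difference between the doses was 1.32 ± 0.7 log2 units, with an interval from -0.14 to 2.78 (adjusted p = 0.651). For Aldh3a2, which oxidises fatty aldehydes, the estimate was close to 0. It was at 2970, 1260, 2480, 4440 and 2630 CPM at 0.5 mg/kg and at 4180, 1090 and 3770 CPM at 5 mg/kg, a difference of 0.13 ± 0.5 log2 units. Its rise at 0.5 mg/kg was 2.72 ± 0.46 (adjusted p = 0.0102).

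Peroxisomal beta-oxidation shortens long fatty acids. Of 24 genes tested for it, 2 were higher at 0.5 than at 0 mg/kg, 6 at 5 than at 0 mg/kg and 0 between the doses. Over all genes tested, 0.208% were higher at 0.5 and 1.56% at 5 than at 0 mg/kg. The list median was 0.84 log2 units for 0.5 against 0 and -0.02 for 5 against 0.5. Ehhadh, the bifunctional enzyme of the pathway, was at 544, 338, 459, 375 and 173 CPM in the controls, at 6130, 2260, 5670, 12300 and 11900 CPM at 0.5 mg/kg and at 25600, 9820 and 16500 CPM at 5 mg/kg. The doses overlapped through replicate 2 at 5 mg/kg, and neither overlapped the controls. Ehhadh rose by 4.34 ± 0.58 log2 units at 0.5 mg/kg (adjusted p = 0.00141), which was 78.6% of its log2 change and 43% of its increase in CPM at 5 mg/kg. The difference between the doses was 1.18 ± 0.57, interval -0.02 to 2.37 (adjusted p = 0.603).

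Pex11a, which drives peroxisome division, was at 117, 30.4, 102, 149 and 86.3 CPM at 0.5 mg/kg and at 118, 29.7 and 156 CPM at 5 mg/kg. The doses overlapped throughout, and replicate 2 was the lowest animal at 5 mg/kg. Its difference of 0.06 ± 0.58 log2 units was close to 0, but the interval from -1.16 to 1.28 was wider than the limit for a plateau.

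Of 21 genes tested for mitochondrial oxidation and fuel choice, 2 were higher at 0.5 than at 0 mg/kg, 8 at 5 than at 0 mg/kg and 0 between the doses. The shares over all genes tested were 0.208% at 0.5 and 1.56% at 5 against 0 mg/kg. The list median between the doses was 0.31 log2 units. Cpt1b, the muscle form of the enzyme that admits fatty acids to mitochondria, was at 53.2, 21.3, 48.9, 82.6 and 129 CPM at 0.5 mg/kg and at 277, 82.9 and 348 CPM at 5 mg/kg, against 3.25 to 8.46 CPM in the controls. Replicate 2 again lay inside the range of the lower dose. Cpt1b had risen by 3.4 ± 0.47 log2 units at 0.5 mg/kg (adjusted p = 0.00159), and the next step was 1.82 ± 0.47, interval 0.82 to 2.81, which did not pass (adjusted p = 0.199).

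Pdk4, a kinase that turns off pyruvate oxidation, was at 6.43, 4.44, 2.09, 20.9 and 6.76 CPM at 0.5 mg/kg and at 28.5, 257 and 53.3 CPM at 5 mg/kg. The doses did not overlap, and replicate 2 was the highest. The difference between the doses was 3.79 ± 0.78 log2 units (adjusted p = 0.0619) and 2.33 without replicate 2 (adjusted p = 0.743). The list of ketone body synthesis genes had a median of -0.07 log2 units between the doses over 5 genes, and 0 of them passed.

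**Figure D2:**
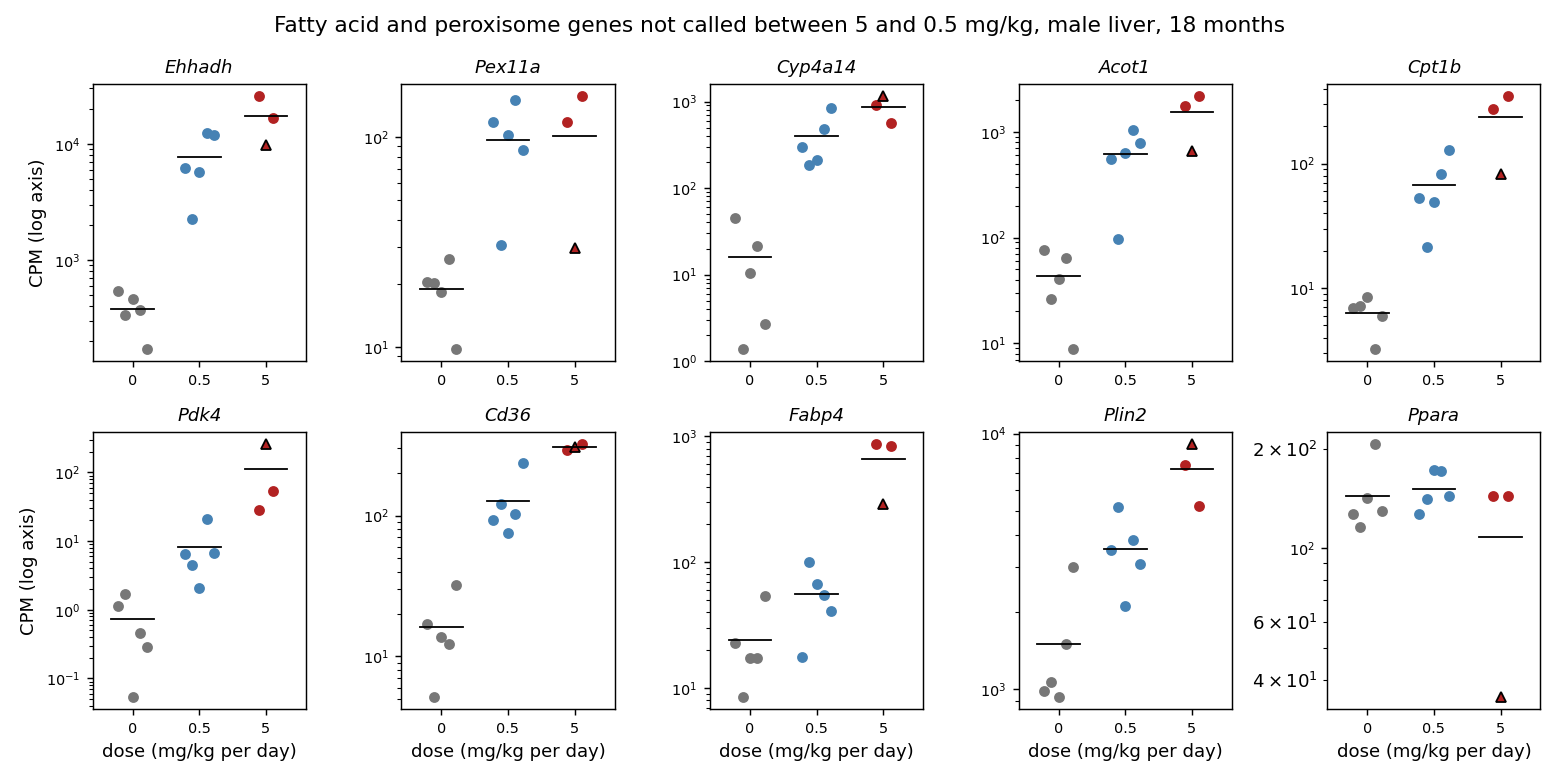
Levels of 10 fatty acid and peroxisome genes in each animal, in CPM on a log axis, by dose in mg/kg per day. Points are animals, triangles are replicate 2 of the 5 mg/kg group and bars are group means. Ehhadh, Pex11a, Cyp4a14, Acot1 and Cpt1b overlap between 0.5 and 5 mg/kg, whereas in Pdk4, Cd36, Fabp4 and Plin2 all 3 animals at 5 mg/kg lie above the 5 animals at 0.5 mg/kg.

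Genes for the uptake, binding and storage of lipid separated the doses most often. In 9 of 22 such genes the 3 animals at 5 mg/kg all lay above the 5 at 0.5 mg/kg. Over all genes tested this held for 3.09% (402 genes), and all 3 lay below for 2.45% (319 genes). The list's median difference between the doses was 1.1 log2 units, and 0.88 without replicate 2. One member passed the test between the doses, 3 were higher at 0.5 than at 0 mg/kg and 10 at 5 than at 0 mg/kg. Among all genes tested 0.0692%, 0.208% and 1.56% were higher in these comparisons.

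Slc27a4, which takes up and activates long-chain fatty acids, was that member. It was at 67.6, 71.6, 59.8, 93.2 and 59.3 CPM in the controls and at 59.4, 91.1, 70.1, 89.9 and 117 CPM at 0.5 mg/kg, and these groups overlapped. At 5 mg/kg it was at 263, 438 and 160 CPM, above every other animal. Slc27a4 rose by 1.75 ± 0.28 log2 units from 0.5 to 5 mg/kg (adjusted p = 0.0433), and 0.5 differed from 0 mg/kg by 0.28 ± 0.25. Without replicate 2 the step was 1.31 (adjusted p = 0.12). Slc27a1, a related transporter, behaved otherwise: it rose by 3.26 ± 0.54 at 0.5 mg/kg (adjusted p = 0.01) and differed by 0.62 ± 0.56 between the doses. The difference between these transporters was not tested.

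Cd36, the fatty acid translocase, was at 93.4, 121, 75.7, 103 and 237 CPM at 0.5 mg/kg and at 293, 309 and 321 CPM at 5 mg/kg, against 5.16 to 32.3 CPM in the controls. The 3 groups did not overlap. The step between the doses was 1.29 ± 0.51 log2 units, interval 0.23 to 2.35 (adjusted p = 0.484). Fabp4, a fatty acid binding protein best known from fat cells and macrophages, was at 17.6, 100, 66.8, 55.3 and 40.7 CPM at 0.5 mg/kg, which overlapped controls of 8.52 to 54.2 CPM. At 5 mg/kg it was at 866, 288 and 836 CPM, a difference of 3.57 ± 0.78 log2 units from 0.5 mg/kg (adjusted p = 0.0959). Plin2, which coats lipid droplets, was at 2120 to 5150 CPM at 0.5 mg/kg and 5190 to 9080 CPM at 5 mg/kg, a difference of 1.04 ± 0.39 (adjusted p = 0.438).

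Some lipid genes were close to silent in the controls, so their folds depend on a few counts. Cidea, a droplet protein, was at 0 CPM in 4 controls and 0.0663 CPM in the other, at 4.8, 0.234, 1.33, 2.63 and 0.233 CPM at 0.5 mg/kg and at 7.62, 10.2 and 3.62 CPM at 5 mg/kg. The doses overlapped, and the difference between them was 1.94 ± 0.89 log2 units (adjusted p = 0.571). Fabp3, the heart form of the binding proteins, was chosen after its values were seen. It was at 0.579, 0.0779, 0.0949, 3.81 and 1.32 CPM at 0.5 mg/kg and at 28.4, 13.3 and 77.9 CPM at 5 mg/kg, a difference of 5.07 ± 0.98 (adjusted p = 0.0532).

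The genes on a plateau were not classical oxidation enzymes. Ddhd2, a lipase of phospholipids and triglycerides, was at 279, 121, 250, 439 and 273 CPM at 0.5 mg/kg and at 278, 208 and 467 CPM at 5 mg/kg, with controls of 44.3 to 94.9 CPM. The doses overlapped and lay above the controls. Ddhd2 rose by 1.8 ± 0.33 log2 units at 0.5 mg/kg (adjusted p = 0.0192), and the further difference was 0.22 ± 0.36 with an interval from -0.54 to 0.99. At 9 months, however, Ddhd2 was higher at 5 than at 0.5 mg/kg by 0.7 ± 0.18 (adjusted p = 0.0257), and Pde4d stood at 1.02 ± 0.32 without passing (adjusted p = 0.0746). Fam131c, whose role is not well described, was at 55.7 to 137 CPM at 0.5 mg/kg and 44.8 to 191 CPM at 5 mg/kg, a difference of 0.08 ± 0.43 with an interval from -0.82 to 0.98. Pde4d, a phosphodiesterase that breaks down cyclic AMP, was at 27.4 to 94.6 CPM and 55.1 to 92.4 CPM, a difference of 0.15 ± 0.33 with an interval from -0.55 to 0.85. The rise of Fam131c and of Pde4d at 0.5 mg/kg had an adjusted p of 0.0479 each, and passed in 3 and 2 of the 13 fits that left out a library.

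Other genes that had risen at 0.5 mg/kg included Sptlc3, a subunit of the enzyme that starts sphingolipid synthesis, and Fbp2, the muscle form of fructose bisphosphatase. Sptlc3 was at 0 to 0.115 CPM in the controls, at 17.7, 4.67, 13.8, 55.3 and 14.4 CPM at 0.5 mg/kg and at 50.9, 24.4 and 31 CPM at 5 mg/kg. The doses overlapped, and the step between them was 0.74 ± 0.6 log2 units. Fbp2 was at 5.09, 2.49, 5.41, 6.56 and 10.7 CPM at 0.5 mg/kg and at 67.1, 25.1 and 52.1 CPM at 5 mg/kg, with controls of 0 to 0.228 CPM. No group of Fbp2 overlapped another, and its step of 2.99 ± 0.67 did not pass (adjusted p = 0.102).

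Pctp, which carries phosphatidylcholine between membranes, was at 44.6, 24.5, 47.5, 55.4 and 61.9 CPM at 0.5 mg/kg and at 58.5, 17.2 and 40 CPM at 5 mg/kg, with controls of 1.45 to 7.62 CPM. Its estimate for the second step was -0.28 ± 0.49 log2 units. Cyp4a32, a close relative of Cyp4a10, was at 1.37 to 27.2 CPM in the controls, at 64.1, 62.5, 182, 173 and 90.3 CPM at 0.5 mg/kg and at 116, 103 and 88.7 CPM at 5 mg/kg. The doses overlapped, and the step between them was -0.16 ± 0.71 log2 units. The remaining genes of the 27 were Acot3, Crat, Cyp4a31, Fam43a, Gabrg1, Gm49366, Gnai1, Lgals4, Serinc2, Tmem98 and Ucp3. In none of them did the step between the doses pass, and the estimates ran from -0.07 for Fam43a to 1.92 for Ucp3.

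Several called genes outside lipid handling were higher at 5 mg/kg and were not called at 0.5 mg/kg. Krt8, a keratin of the hepatocyte and bile duct cytoskeleton, was at 315, 281, 359, 392 and 604 CPM in the controls, at 334, 556, 351, 341 and 505 CPM at 0.5 mg/kg and at 1190, 917 and 1140 CPM at 5 mg/kg. The lower groups overlapped and all animals at 5 mg/kg lay above them. Krt8 rose by 1.37 ± 0.25 log2 units between the doses (adjusted p = 0.0433), and 0.5 against 0 was 0.1 ± 0.22. Without replicate 2 the step was 1.48 (adjusted p = 0.07). Krt8 passed in 1 of the 13 fits that left out a library.

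Pdlim1, an adaptor at actin fibres, was at 137, 159, 159, 129 and 170 CPM at 0.5 mg/kg and at 273, 500 and 281 CPM at 5 mg/kg, with controls of 144 to 194 CPM. It rose by 1.22 ± 0.2 log2 units between the doses (adjusted p = 0.0433), with a step of 0.88 without replicate 2 (adjusted p = 0.117). Mmp7, a metalloprotease of injured epithelium, was at 7.12, 3.66, 13.1, 4.32 and 1.4 CPM at 0.5 mg/kg and at 34.5, 101 and 48.6 CPM at 5 mg/kg, with controls of 0.53 to 3.23 CPM. It rose by 3.37 ± 0.62 (adjusted p = 0.0433), with a step of 2.81 without replicate 2 (adjusted p = 0.185). For Rab30, a GTPase of the Golgi, the step between the doses rested on replicate 2. Rab30 was at 7.81, 5.22, 11.4, 9.02 and 6.29 CPM at 0.5 mg/kg and at 10.7, 294 and 16.7 CPM at 5 mg/kg. Its step fell from 3.74 ± 0.69 to 0.79 without that library, where it did not pass (adjusted p = 1). The rise of Rab30 at 5 against 0 mg/kg was 5.61 log2 units. That rise passed in all 13 fits that left out a library, with 2.64 the lowest estimate.

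Abcc4 encodes an exporter of bile acids and organic anions at the blood side of hepatocytes. It was at 2.18, 1.28, 2.69, 2.19 and 2.22 CPM in the controls, at 3.88, 2.49, 4.46, 5.38 and 6.61 CPM at 0.5 mg/kg and at 16.7, 13.8 and 33.4 CPM at 5 mg/kg. All animals at 5 mg/kg were above all others, while 1 animal at 0.5 mg/kg lay inside the range of the controls. Abcc4 rose by 2.22 ± 0.4 log2 units between the doses (adjusted p = 0.0433) and by 2.46 without replicate 2 (adjusted p = 0.0521). Its difference of 1.11 ± 0.36 at 0.5 mg/kg did not pass (adjusted p = 0.485). It was the 1 gene of 21 in the list of bile acid synthesis and transport that passed between the doses, and that list's median was -0.45. Of all genes tested, 0.0692% were called higher in that comparison.

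Cryl1, an enzyme that oxidises the sugar acid gulonate, was the gene that fell. It was at 6.32, 10, 8.19, 7.35 and 3.7 CPM in the controls, at 10.8, 5.99, 5.08, 2.13 and 4.35 CPM at 0.5 mg/kg and at 0.655, 1.51 and 0.517 CPM at 5 mg/kg. The lower groups overlapped, and every animal at 5 mg/kg lay below them. Cryl1 fell by 2.7 ± 0.5 log2 units between the doses (adjusted p = 0.0433) and by 3.26 without replicate 2 (adjusted p = 0.0521).

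**Figure D3:**
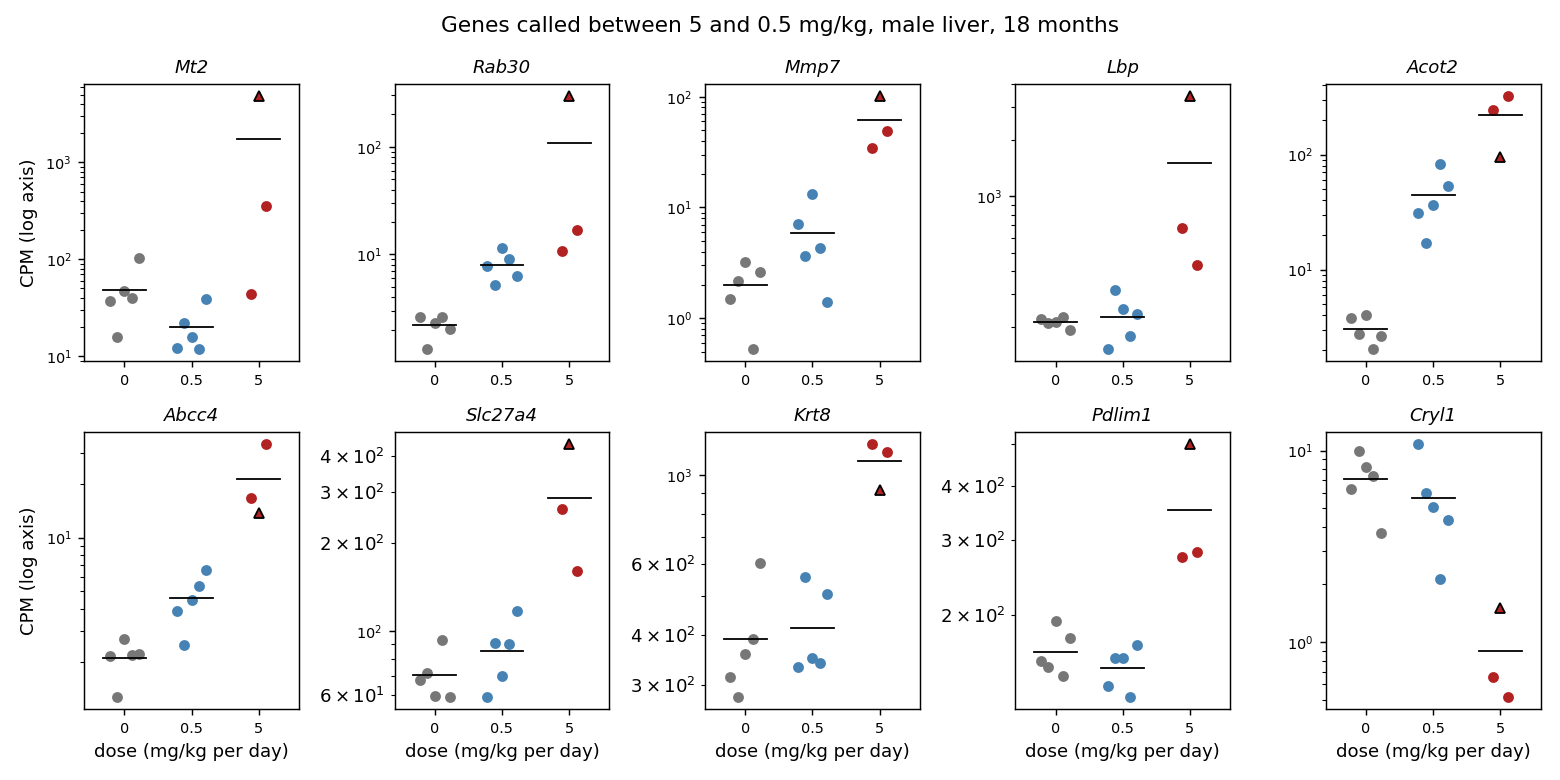
Levels of the 10 genes called between 5 and 0.5 mg/kg in each animal, in CPM on a log axis, by dose in mg/kg per day. Points are animals, triangles are replicate 2 of the 5 mg/kg group and bars are group means. Replicate 2 carries the high mean of Mt2, Rab30 and Lbp, while in Acot2, Abcc4, Krt8 and Cryl1 the other animals at 5 mg/kg lie as far or farther from the lower dose.

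Genes of the acute phase, which the liver makes in response to inflammatory cytokines, were high in 1 animal. Saa1, a serum amyloid, was at 258, 477, 219, 193 and 265 CPM at 0.5 mg/kg and at 320, 111000 and 102 CPM at 5 mg/kg. Replicate 2 was far above all other animals and the rest of the group overlapped 0.5 mg/kg. The difference was 7.04 ± 1.41 log2 units (adjusted p = 0.0539) and -0.42 without replicate 2. The same library had 69800 CPM of Saa2, 1880 CPM of Serpina3n and 1240 CPM of Orm2, against at most 216, 93.5 and 23.1 CPM at 0.5 mg/kg. Saa1 and Saa2 are near-identical, so their split is uncertain. High Saa1 was also seen in females at 18 months, up to 41900 CPM at 0 mg/kg and 66400 CPM at 0.5 mg/kg.

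The median difference between the doses over 27 acute phase and complement genes was 1.16 log2 units with replicate 2 and -0.29 without it, and 0 of them passed in either fit. Lbp belongs to this response as the protein that presents bacterial lipopolysaccharide. It was at 153, 314, 249, 179 and 236 CPM at 0.5 mg/kg and at 682, 3440 and 429 CPM at 5 mg/kg, with controls of 194 to 225 CPM. All 3 animals at 5 mg/kg lay above the rest. The step of 2.75 ± 0.49 (adjusted p = 0.0433) was 1.3 without replicate 2 (adjusted p = 0.393). The level of PPAR-alpha targets in replicate 2 was uneven: Ehhadh, Acot1, Cpt1b, Aldh3a2 and Pex11a were lowest in it among the animals at 5 mg/kg, and Cyp4a14 was highest. The part of that animal's state in the doses' differences beyond these values was not tested.

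**Figure D4:**
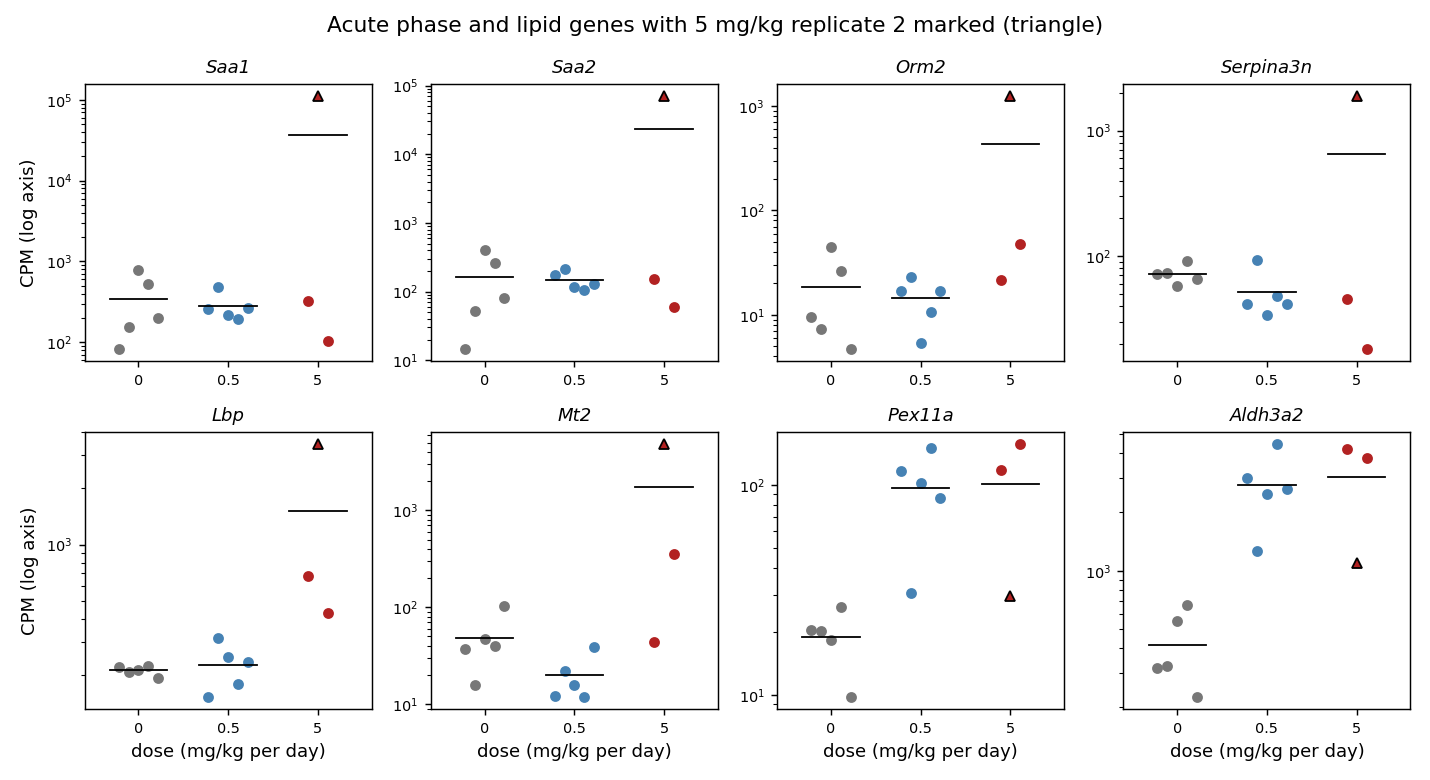
Levels of 6 acute phase or metal-binding genes and 2 lipid genes in each animal, in CPM on a log axis, by dose in mg/kg per day. Points are animals, triangles are replicate 2 of the 5 mg/kg group and bars are group means. Replicate 2 reaches 111000 CPM in Saa1 and 4810 CPM in Mt2 and is the lowest animal of its dose in Pex11a and Aldh3a2.

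Mt2, a metallothionein that binds zinc and copper, had the largest difference among the called genes. It was at 12, 22.2, 15.6, 11.9 and 39.2 CPM at 0.5 mg/kg and at 43.3, 4810 and 354 CPM at 5 mg/kg, with controls of 15.7 to 102 CPM. The lowest animal at 5 mg/kg lay inside the range of the controls. Mt2 differed by 6.43 ± 1.12 log2 units between the doses (adjusted p = 0.0433) and by 3.3 without replicate 2 (adjusted p = 0.309). Its neighbour Mt1 was at 1.46 to 5.06 CPM at 0.5 mg/kg and at 3.87, 163 and 34.7 CPM at 5 mg/kg, the same order of animals, and its 4.28 ± 1.12 did not pass (adjusted p = 0.202). Metallothionein genes carry metal response elements near their start, and the windows of these genes are shown since they moved in the same animals. They run from 250 bases before to 50 bases after the annotated start, from RefSeq on GRCm38.p6. Capitals mark each match to the loose pattern TGCNCNC, in which N is any base, on either strand. A match need not be a metal response element. Mt2 lies at chr8:94172368-94172667 and Mt1 at chr8:94178839-94179138, both on the plus strand.
Mt2: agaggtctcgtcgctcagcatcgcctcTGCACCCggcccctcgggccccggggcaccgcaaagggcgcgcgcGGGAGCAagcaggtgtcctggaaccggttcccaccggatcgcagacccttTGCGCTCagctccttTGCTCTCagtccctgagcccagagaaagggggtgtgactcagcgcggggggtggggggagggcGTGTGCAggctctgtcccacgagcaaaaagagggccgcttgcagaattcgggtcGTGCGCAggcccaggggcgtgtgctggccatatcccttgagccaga
Mt1: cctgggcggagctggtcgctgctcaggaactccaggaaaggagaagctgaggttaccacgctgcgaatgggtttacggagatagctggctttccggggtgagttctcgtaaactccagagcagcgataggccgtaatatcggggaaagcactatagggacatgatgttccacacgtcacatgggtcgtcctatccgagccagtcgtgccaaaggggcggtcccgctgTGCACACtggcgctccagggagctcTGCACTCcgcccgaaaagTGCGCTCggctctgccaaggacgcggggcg
Mt2 had 6 matches and Mt1 had 3. The pattern is short, and 51% of all 32851 windows held at least 1 match. The matches are thus a description of the letters and not of metal response elements or a bound factor.

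Male-biased liver genes, which growth hormone pulses keep high in males, had lower summed levels at 5 mg/kg, though none passed the test singly. Of 20 such genes, 6 had all 3 animals at 5 mg/kg below the 5 at 0.5 mg/kg, which held for 2.45% of all genes tested. In the test 0 passed, and the median was -1 log2 units, or -1.62 without replicate 2. The summed level was 36000, 38000, 32500, 56900 and 14500 CPM in the controls, 15900, 18600, 15500, 20500 and 20500 CPM at 0.5 mg/kg and 9390, 15100 and 1870 CPM at 5 mg/kg. All animals at 5 mg/kg lay below those at 0.5 mg/kg, and replicate 3 was the lowest. Mup3, a major urinary protein chosen after its values were seen, was at 3360 to 4200 CPM at 0.5 mg/kg and at 540, 2400 and 31.2 CPM at 5 mg/kg, a difference of -1.94 ± 1.07 (adjusted p = 0.667). Genes of amino acid breakdown and the urea cycle had a median of -0.14 over 26 genes, or -0.6 without replicate 2, with 0 passing in either fit. At 9 months 18 of the 26 were lower at 5 than at 0.5 mg/kg with a median of -1.27. There 286 of all 11371 genes tested were lower. The list's summed level at 18 months was 8730 CPM in replicate 3 and 51000 CPM in replicate 2, below and above the 14600 to 30000 CPM at 0.5 mg/kg. The controls ran from 8380 to 36500 CPM.

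The targets of the xenobiotic receptors CAR and PXR showed no common step. Of 21 tested, 0 passed between the doses and the median was -0.05 log2 units. Cyp2b10, the usual readout of CAR, was at 19.1 to 95.9 CPM at 0.5 mg/kg and at 35.1, 19.5 and 2.21 CPM at 5 mg/kg, a difference of -1.5 ± 1.07 with an interval from -3.73 to 0.74. Cyp3a11, the usual readout of PXR, differed by 0.66 ± 0.57 with an interval from -0.54 to 1.86. Cyp1a2 differed by 0.02 ± 0.88, with an interval from -1.82 to 1.85.

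Stress and growth lists were likewise not resolved. The median was 0.81 log2 units over 16 genes of the endoplasmic reticulum and amino acid stress response, 0.51 over 15 p53 and DNA damage genes, and 0.04 over 24 cell cycle genes, with 0 passing in each. Without replicate 2 these medians were 0.23, 0.12 and -0.17. That library held 68000 CPM over the first list, against 8120 and 5010 CPM in the other animals at 5 mg/kg. Gadd45b, a gene induced by stress, was at 17.3, 21, 22.1, 31.7 and 38.6 CPM at 0.5 mg/kg and at 78.7, 33.5 and 226 CPM at 5 mg/kg. It differed by 2.11 ± 0.64 (adjusted p = 0.334) and overlapped through replicate 2. Ccnd1, a cyclin of the G1 phase, differed by 0.8 ± 0.89 and Afp by -0.88 ± 1.47, and neither passed. The 10 fetal and liver tumour markers tested had a median of -0.75 log2 units between the doses, with 0 passing. In 1 of them, Ly6d, all 3 animals at 5 mg/kg lay above the 5 at 0.5 mg/kg, which held for 3.09% of all genes tested. At 9 months 4 of 7 tested were higher at 5 mg/kg with a median of 2.85, against 244 of all 11371 genes tested.

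Markers of other liver cells were read beside these results. Macrophage markers summed to 234 to 456 CPM at 0.5 mg/kg and 383 to 509 CPM at 5 mg/kg. In 2 of 14, Gpnmb and Cd9, all 3 animals at 5 mg/kg lay above the 5 at 0.5 mg/kg. This held for 3.09% of all genes tested. Marco was at 0 to 0.238 CPM at 5 mg/kg. Stellate cell and matrix markers summed to 339 to 1140 CPM and 522 to 1310 CPM, and endothelial markers to 358 to 553 CPM and 310 to 450 CPM, with 0 members passing. Neutrophil markers summed to 8.86 to 65.7 CPM and 21.6 to 122 CPM. Lymphocyte and plasma cell markers had a median difference of -1.59 log2 units over 13 genes, or -2.16 without replicate 2. They summed to 1070 CPM in replicate 5 at 0.5 mg/kg, to 42.4 to 108 CPM in the other animals of that dose and to 97.3, 400 and 57.1 CPM at 5 mg/kg. In 2 of the 13, the T cell receptor complex subunits Cd3e and Cd3d, all 3 animals at 5 mg/kg lay below the 5 at 0.5 mg/kg. Such a separation held for 2.45% of all genes tested, and 0 of the 13 passed. Cholangiocyte markers summed to 15.3 to 50.1 CPM at 0.5 mg/kg and 10.7 to 47.3 CPM at 5 mg/kg. Fabp4 is made in fat cells and macrophages, and the part of these cells in its difference was not tested.

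The same doses had been compared after 9 months in other males, 5 at each dose, which share no animal with those above. There 530 of 11371 genes were called between 5 and 0.5 mg/kg (4.66%), 244 higher and 286 lower. Of the 10 genes called at 18 months, 3 were also called at 9 months: Acot2 rose by 3.52 log2 units, Krt8 rose by 1.04 and Cryl1 fell by 2.36 (adjusted p = 2.41e-07, 0.00596 and 0.00228). Mt2, Rab30, Mmp7, Lbp, Abcc4, Slc27a4 and Pdlim1 were not called at 9 months, with estimates of 1.69, 0.7, 0.87, 0.14, 2.19, 0.65 and 0.42. Ehhadh, Cpt1b, Acot1, Fabp4 and Plin2, which did not pass at 18 months, were higher at 5 than at 0.5 mg/kg at 9 months by 1.85, 3, 2.12, 5.16 and 1.47.

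Of 529 genes called at 9 months and tested at 18 months, 470 had the same sign of estimate at 18 months and 3 were called there. Of the 243 that were higher at 9 months, 213 had an estimate above 0 at 18 months, with a median of 0.65. Of the 286 that were lower, 257 had an estimate below 0, with a median of -0.54. Over all genes tested at 18 months, 50.5% of estimates were above 0. The 18-month fit had 3 against 5 animals, and fewer calls there do not show a smaller effect.

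**Figure D5:**
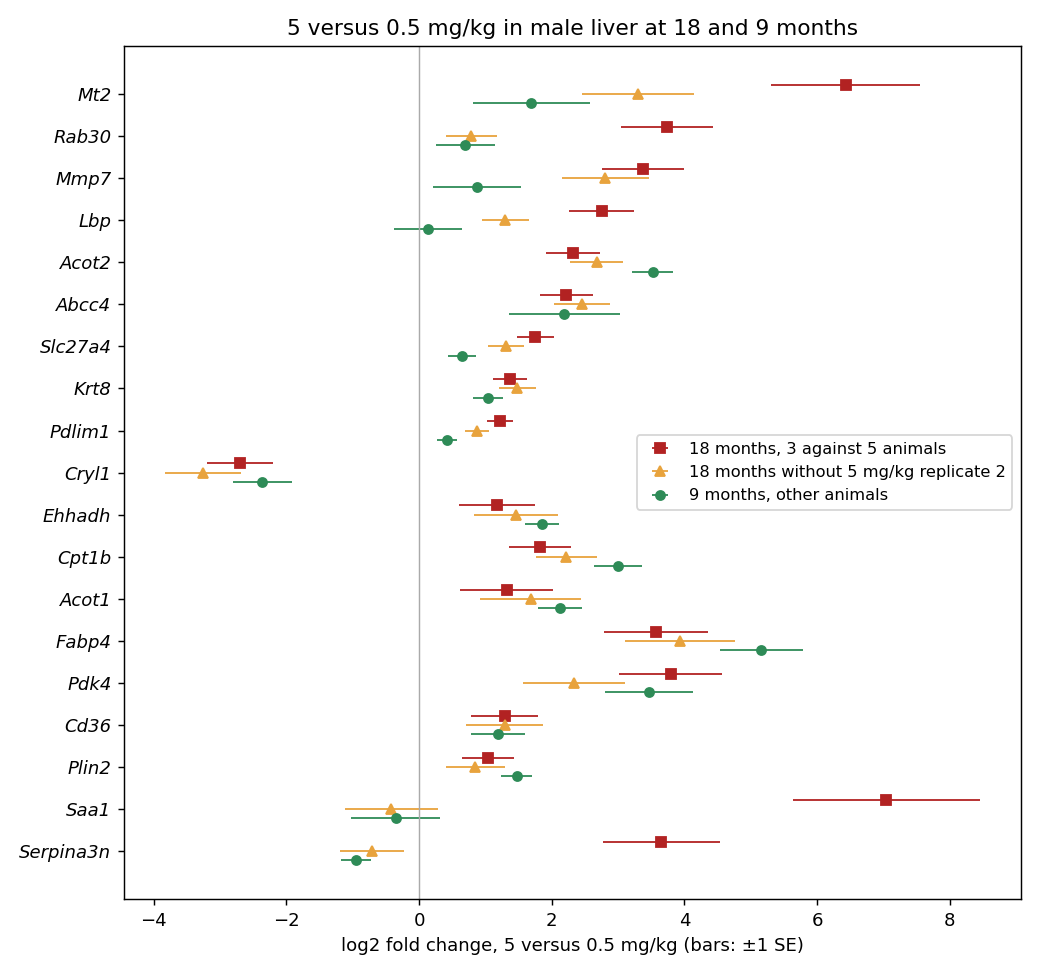
Log2 fold changes of 5 against 0.5 mg/kg in males for the 10 called genes and 9 further genes. Squares are 18 months, triangles 18 months without replicate 2 of the 5 mg/kg group and circles 9 months, with 1 SE to either side. Among the 10 called genes, all 3 estimates are 1.04 or more in Acot2, Abcc4, Krt8 and Mt2 and -2.36 or less in Cryl1. Of the further genes, Saa1 and Serpina3n stand at 7.04 and 3.65 only when replicate 2 is in the fit.

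The difference itself between 18 and 9 months was tested as an interaction over all 92 animals. It was called for 15 of 13681 genes (0.11%), all with a larger estimate at 18 months, among them Saa1, Serpina3n, Serpina3m and Olig1. Without replicate 2 of the 18-month males at 5 mg/kg, 0 of 14350 genes were called by edgeR, with 425 at an unadjusted p under 0.05. Age and time on the compound cannot be told apart here. The difference between males and females at 18 months was called for 129 genes (0.943%), 116 positive and 13 negative, and for 6 without that library. Cyp4a12a, a male-biased fatty acid hydroxylase, was in the negative group: it was at 174 to 368 CPM at 0.5 mg/kg and 110 to 368 CPM at 5 mg/kg in males, and in females rose by 5.2 log2 units between the doses (adjusted p = 3.14e-05), an interaction of -5.21 ± 1.1 (adjusted p = 0.00386). Without the library it was -5.32 (adjusted p = 0.133).

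Of the 10 genes called in males at 18 months, 1 was also called in females. Acot2 was higher at 5 than at 0.5 mg/kg there by 2.24 log2 units (adjusted p = 0.00321), and its difference between the sexes was 0.07 (adjusted p = 0.999). The 10 genes were picked for their step in these same males, which favours a difference from females. Over all genes tested, 0.943% had a called difference between the sexes. For 6 of the 10 the step differed between the sexes: Lbp, Mmp7, Mt2, Rab30, Pdlim1 and Cryl1. In females their estimates were -1.15, -2.41, -0.51, 0.66, 0 and 0.68 log2 units, and none passed. Without replicate 2 of the males, 1 of these 6 terms was still called, that of Cryl1, at -3.95 (adjusted p = 0.0224).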

How the data were processed

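The authors deposited raw counts per TempO-Seq probe, 30146 rows for 21400 gene symbols. Per the submitters' processing notes, reads went through bcl2fastq 2.17.1.14 and Bowtie, whose version, like the probe manifest, is not given in the sources used here. Probe counts were summed by symbol, and 6309 symbols had more than 1 probe. The 20 males of 18 months (5 dose groups) were fitted together in edgeR 4.0.16 (R 4.3.3) with TMM scaling, filterByExpr and robust quasi-likelihood tests, with Benjamini-Hochberg adjustment over 13002 genes and a threshold of 0.05. SE was taken as the log2 fold change over the root of its F statistic, and intervals are at 95%. Interactions used 1 fit of all 92 animals. The members and the gene lists were chosen with earlier results of these data known, and 4 list genes had no probe.

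Named were the genes called between the doses, the dose classes, up to 4 called members of each list, 26 panel genes, all 27 genes called at 0.5 mg/kg and the largest interactions. A few genes that the rule names are left out here. Other genes are said to have been chosen after their values were seen. Alternatives were RLE scaling, no filter, other sets of samples, DESeq2 1.42.0, limma 3.58.1, stricter thresholds, single probes and each library left out in turn. The code was tested on simulated data.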

Additional observations from a re-analysis of the deposited data

Results flagged for a closer look

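Among 108 groups of control or 0.5 mg/kg animals, over 54 named genes, 16 held an animal that passed Dixon's 95% value. That value is set on the share of the group's range taken by the animal's gap to its nearest neighbour. For normally distributed values, chance passes it in about 1 group in 20. CPM need not be so distributed and the genes share animals, so 16 of 108 is a description. Whether it is an excess was not tested. Control replicate 5 was the animal in Afp (share 0.966), Fgf21 (0.801), Vnn1 (0.793), Tmem98 (0.735) and Plin2 (0.73). Control replicate 4 was the animal in Cidea (1, where the other controls were at 0 CPM), Pde4d (0.758) and Ppara (0.716), and control replicate 3 in Gm49366 (0.718). At 0.5 mg/kg, replicate 4 was the animal in Pdk4 (0.752), Sptlc3 (0.743) and Gnai1 (0.731), replicate 5 in Retsat (0.733) and Cd36 (0.719), and replicate 2 in Afp (0.876) and Fgf21 (0.759).

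The step from 0.5 to 5 mg/kg differed between 18 and 9 months in males by 7.68 log2 units for Olig1, a transcription factor of the nervous system, by 7.37 for Saa1, by 4.58 for Serpina3n and by 3.86 for Serpina3m (interaction test). Without replicate 2 of the 18-month males at 5 mg/kg these were 1.3, -0.11, 0.21 and 0.85, and none was called.

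Between males and females at 18 months the step differed by 13.1 log2 units for Saa2, 12.19 for Saa1, 10.66 for Orm2, 10.35 for Muc13, 4.18 for Serpina3n and 3.58 for Serpina3m. Among the females Saa1 reached 66400 CPM at 0.5 mg/kg and 41900 CPM at 0 mg/kg, so high acute phase genes were also seen without dosing. Without replicate 2 the term for Orm2 was 7.02 (adjusted p = 0.0486) and the others were not called. It was negative for Ighv5-6 (-11.68), Cyp4a12a (-5.21) and Gm10681 (-5.19), and none of these was called without replicate 2. Muc13 and Ighv5-6 had 0 counts in many libraries, so the size of their terms cannot be read as a fold. The genes called in males were picked for their step in those animals, which favours such differences. Among them the step differed by 6.94 for Mt2, 5.75 for Mmp7, 3.88 for Lbp, 3.07 for Rab30, 1.21 for Pdlim1 and -3.39 for Cryl1. Without replicate 2 it differed by 3.81, 5.2, 2.44, 0.1, 0.86 and -3.95, of which that of Cryl1 was still called (adjusted p = 0.0224). Gm10681 was at 59.2 to 233 CPM at 0.5 mg/kg and 0.753 to 4.95 CPM at 5 mg/kg in males, and at 1.34 to 5.18 CPM and 1.31 to 3.54 CPM in females.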

How the results depend on the processing

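The 10 genes called between 5 and 0.5 mg/kg in males at 18 months kept their direction in all alternatives run, but their number varied: 0 without the low-count filter, 0 in a fit of only these 2 dose groups, 0 in a fit of 3 groups (0, 0.5 and 5 mg/kg), 0 at an adjusted p under 0.01, 0 for probes tested without summing, 202 in a fit of all 92 samples, 93 with DESeq2 and 45 with limma voom and sample weights. With 1 library left out in turn it ran from 0 to 46, with the highest value without 5 mg/kg replicate 1; it was 32 without replicate 1 of 0.05 mg/kg, 2 without 5 mg/kg replicate 2 and 17 without control replicate 5. The other comparisons were less sensitive to single choices. The count for 5 against 0 mg/kg was 776, 599 and 754 with all 92 samples, DESeq2 and limma, and 119 to 498 over the libraries left out. For 0.5 against 0 mg/kg it was 82, 108 and 86, and 10 to 47 over the libraries left out. Leaving out 5 mg/kg replicate 2 and control replicate 5 together gave 44. Graded genes numbered 5 with all 92 samples, 5 with DESeq2, 6 with limma, 0 without the filter, 0 in the fit of 3 groups and 0 to 2 over the libraries left out. Genes of the 5-only class numbered 86, 24, 9, 0 and 0 in the same order and 0 to 13, and plateau genes 20, 13 and 19, with 7 in the fit of 3 groups, 9 at a limit of 1.5 log2 units and 0 to 6, the highest without replicate 1 of 0.05 mg/kg. The class of genes that turned held 2 with all 92 samples. The duration term was called for 3 genes in the fit of the 44 males and 0 without 5 mg/kg replicate 2. The sex term was called for 30 in the fit of the 18-month animals and 6 without that library. Of 2491 values recomputed for single genes, 2097 kept their side of the threshold, 376 lost it, 12 gained it, 6 moved by over 1 SE and 0 reversed a call. Those that gained it were Pdk4, Fabp4, Cpt1b, Plin2 and Gadd45b, and Pdk4, which passed with DESeq2, had an adjusted p of 0.743 without 5 mg/kg replicate 2. Limma, the joint omission and the omission of 0.05 and 0.1 mg/kg libraries were chosen after seeing the data. The cause of these changes was not tested, beyond the fewer samples or genes that a setting itself brings. No paired analysis was possible because the replicate numbers only follow the accession order. With 3 animals at the higher dose, differences under about 1 log2 unit were mostly not detectable, and far larger ones could also fail. Fabp4 at 3.57 and Pdk4 at 3.79 log2 units did not pass in the main fit. A gene that was not called may thus have changed by much more than a doubling. Intervals cover the spread between these animals only.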

Other observations

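Of the 73 genes lower at 5 mg/kg than in the controls, 0 were called lower at 0.5 mg/kg by edgeR, and 71 had an estimate below 0 at 0.5 mg/kg, and the median share of the log2 change reached there was 36.8%. Both differences use the same controls, so a high control value alone lowers both, and these values do not show a change at 0.5 mg/kg. The genes were picked for their fall at 5 mg/kg, which can make the share lean low. In 40 of the 73 all 3 animals at 5 mg/kg lay below the 5 at 0.5 mg/kg, but these genes were picked for low values at 5 mg/kg, so the count is a description. The genes named next were chosen after their values were seen. Sult1a1, a sulfotransferase of phenols and drugs, had the larger of its 2 estimated steps at the lower dose: it was at 1050 to 1210 CPM in the controls, at 134, 833, 229, 247 and 270 CPM at 0.5 mg/kg and at 111, 265 and 206 CPM at 5 mg/kg, with a log2 difference of -1.73 for 0.5 against 0 that did not pass and -0.82 for 5 against 0.5.

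Serpina1a, an antitrypsin of the liver, was at 593 to 883 CPM in the controls, at 315, 461, 383, 285 and 123 CPM at 0.5 mg/kg and at 148, 98.8 and 16.6 CPM at 5 mg/kg. It fell by 3 log2 units at 5 mg/kg against 0 (adjusted p = 0.0133), and the groups overlapped between the doses in 1 animal. Ido2, an enzyme of tryptophan breakdown, was at 3.74 to 7.17 CPM at 0.5 mg/kg, within the spread of the controls at 2.28 to 10.4 CPM, and at 1.13, 0.202 and 0.988 CPM at 5 mg/kg. It differed by -2.78 ± 0.56 between the doses (adjusted p = 0.0532) and by -2.36 at 9 months (adjusted p = 0.00174). Cmah, which makes the sialic acid Neu5Gc, was at 21.6 to 34.6 CPM at 0.5 mg/kg and at 11.6, 5.15 and 3.72 CPM at 5 mg/kg, a difference of -2.1 ± 0.5 (adjusted p = 0.144), and of -1.9 at 9 months (adjusted p = 0.000332). Cbr1, a carbonyl reductase and the gene called beside Acot2 without replicate 2, was at 59.6 to 96.1 CPM at 0.5 mg/kg and at 139, 86.9 and 322 CPM at 5 mg/kg.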
